A study of Rattus norvegicus with 8 samples.

Results

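The 27 genes described here make, package, take up, break down or respond to GABA, the main inhibitory transmitter of the brain. They were taken by symbol from the 17337 genes listed in a count table of rat striatum, and comprise the enzymes Gad1 and Gad2, the vesicular transporter Slc32a1, 11 GABA-A receptor subunits, both GABA-B receptor subunits, the transporters Slc6a11 and Slc6a13, the degrading enzymes Abat and Aldh5a1, the inhibitory synapse genes Gphn and Nlgn2, 3 genes of the GABARAP family and the chloride cotransporters Slc12a5 and Slc12a2. All 27 were listed, and 25 passed the filter on low counts. Gabre and Gabrq did not.

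The table came from 8 male Sprague-Dawley rats labelled as wild type, 4 that self-administered METH (methamphetamine, 0.05 mg/kg per infusion) and 4 that self-administered saline, for 2 h per day over 16 days. Both groups had been trained to press a lever for food and carried a jugular catheter, so these treatments were shared by the controls. Per the study's methods, catheters were placed under pentobarbital, and brains were taken under ketamine and xylazine. More rats than these self-administered, and 4 per group with stable lever pressing over the last days were chosen for plasma sampling. The age of the rats was not given in the sources used here. Each rat gave 1 library of poly(A)-captured messenger RNA, and no animals were pooled. Levels are given as CPM, the count scaled to a common library size with a correction for library composition, and fold changes are log2 values of METH minus saline. In such bulk tissue, fewer cells of a type and less RNA per cell cannot be told apart.

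Projection neurons, which make up most of the striatum, release GABA themselves and receive it from neighbouring projection neurons and from interneurons. GABA-A receptors are chloride channels built from several subunits, and the alpha subunit does much to set where a receptor sits and which drugs act on it. GABA-B receptors are coupled to G proteins and need both of their subunits to reach the membrane and signal. The chloride gradient on which GABA-A receptors depend is set by an exporter, the product of Slc12a5, and an importer, the product of Slc12a2.

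Total counts lay between 18135939 and 21211920 per rat, so that 3 counts, the smallest number taken as detected, were worth 0.142 to 0.169 CPM. The striatal neuron genes Drd1 (450 to 515 CPM), Drd2 (424 to 563 CPM) and Ppp1r1b (6785 to 10288 CPM) were high in every rat. Saline rat 1 stood apart in the cortical neuron gene Slc17a7, with 1198 counts, where saline rats 2 to 4 had 64 to 76 and the METH rats 68 to 256. The 5 cortical markers together, none of which was at 0 in every rat, summed to 79.4 CPM in that rat, 3.35 to 4.11 CPM in saline rats 2 to 4 and 3.74 to 13.5 CPM in the METH rats. METH rat 3 and saline rat 3 lay at opposite ends of the first principal component over all genes, at 39.5 and -24.6, with the other 6 rats between -11.7 and 5.29.

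Between METH and saline rats, 0 of the 25 tested GABA genes were called at an FDR below 0.05 by the edgeR quasi-likelihood test. Of the 12014 genes tested, 0.516% were called, made up of 0.0666% lower and 0.449% higher in METH rats. The lowest FDR among the 25 GABA genes was 0.204, for Gabbr2. At an unadjusted p below 0.05 in the same test, 5 of the 25 were lower in METH rats (Gabra2, Gabra3, Gabra5, Gabrg3 and Gabbr2), beside 4.88% of all genes, and 0 were higher, beside 6.26%. Likelihood ratio, DESeq2 and limma-voom tests also called 0 of the 25. The log2 fold change was below 0 in 19 GABA genes and above 0 in 6, with a median of -0.11 beside -0.0055 over all genes, of which 51.4% were lower. The 9 tested GABA-A subunits had a median of -0.42 and 8 of them were lower, whereas the other 16 genes had a median of -0.04. Without saline rat 3 and METH rat 3, a setting added after the values were seen, the median was -0.14 for the 9 subunits and -0.01 for the 25 genes. Saline rat 3 was the highest and METH rat 3 the lowest rat, each in 7 of the 9 subunits. A move of the subunits toward 0 was therefore built into this setting. The plot of fold changes places the alpha, beta and gamma subunits to the left of 0 and the enzymes, transporters and GABARAP genes near it.

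**Figure D1:**
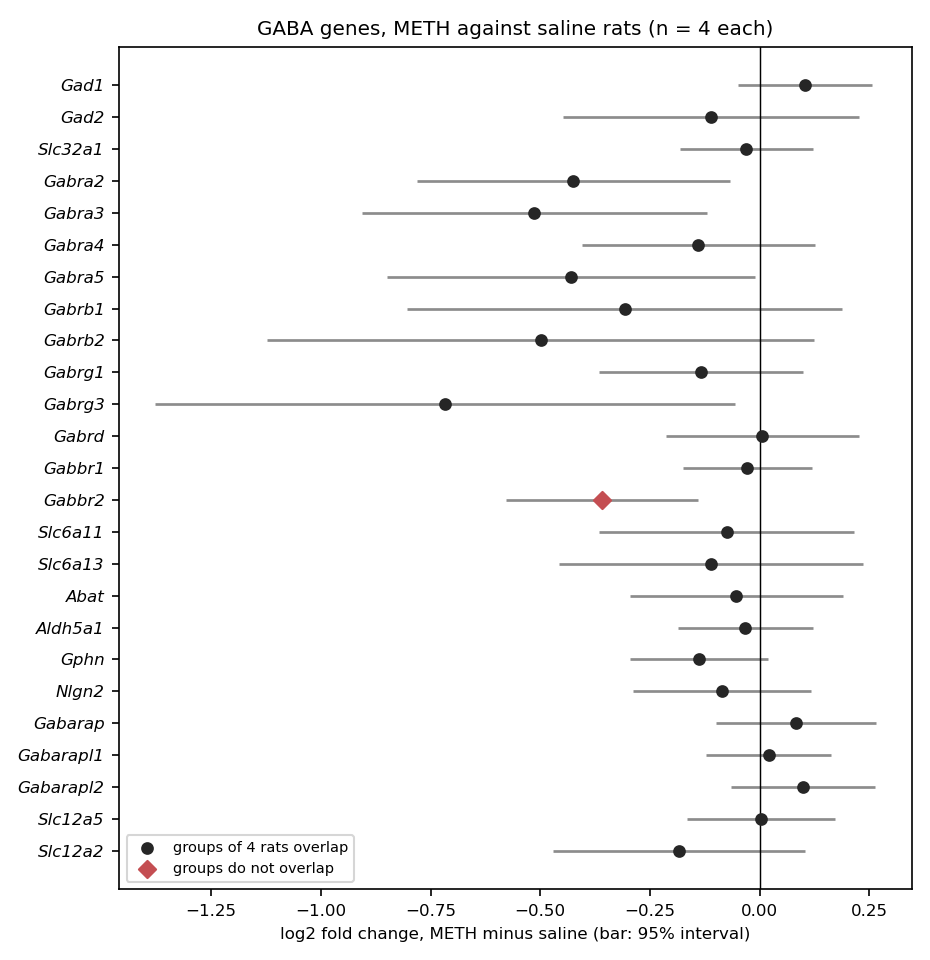
Log2 fold change, METH minus saline, of the 25 tested GABA genes in order of role, from the edgeR fit to 4 rats per group; bars are 95% intervals, and the red diamond marks the gene whose groups did not overlap. The intervals of Gabra2, Gabra3, Gabra5, Gabrg3 and Gabbr2 lie below 0, and no gene passed the FDR threshold.

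GABA is made by glutamate decarboxylase, of which Gad1 and Gad2 encode the larger and the smaller form. Gad1 was at 569.2, 528.9, 614.6 and 556.3 CPM in saline rats 1 to 4 and at 627.9, 631.2, 566.7 and 611.7 CPM in METH rats 1 to 4. METH rat 3 was the lowest of its group and saline rat 3 the highest of its own, and the groups overlapped. Gad1 had the highest log2 fold change of the 25 genes, 0.10 (standard error 0.07, 95% interval -0.05 to 0.26, quasi-likelihood FDR = 0.592). Without both rats numbered 3 it was 0.18, and the places of these rats in their groups set the direction of that change. Gad2 was at 209.2, 203.8, 353.7 and 270.3 CPM in the saline rats and at 233.1, 272.9, 196.9 and 257.5 CPM in the METH rats. Saline rats 1 and 2 lay below 3 of the 4 METH rats, while saline rat 3 lay above all of them. Gad2 differed by -0.11 on the log2 scale (standard error 0.16, 95% interval -0.45 to 0.23, quasi-likelihood FDR = 0.814). Its direction turned without saline rat 3, to 0.076, and without both rats numbered 3, to 0.16. Slc32a1, which loads GABA into synaptic vesicles, was at 605.6, 561.2, 644.6 and 594.9 CPM in saline rats and at 543.3, 603.2, 612.6 and 597.2 CPM in METH rats. Its groups overlapped almost entirely, and the interval of its log2 fold change, -0.18 to 0.12, held 0. Without saline rat 3 or METH rat 1 its difference was 0.0036 or 0.0064.

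Among the alpha subunits, Gabra2, whose product is common in receptors at striatal synapses, was at 73.3, 66.2, 100.4 and 95.1 CPM in saline rats 1 to 4 and at 56.4, 66.0, 45.8 and 81.3 CPM in METH rats 1 to 4. Only METH rat 4 lay above the lowest saline rat. The mean was 83.7 ± 16.6 CPM (SD, n = 4) in saline and 62.4 ± 15.1 CPM (SD, n = 4) in METH rats, a fold of 0.745. Its log2 fold change was -0.42 (standard error 0.17), with an unadjusted p of 0.0233 and an FDR of 0.376 by the quasi-likelihood test.

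Gabra3, another alpha subunit, was at 13.5, 11.8, 16.4 and 13.1 CPM in saline rats and at 9.30, 10.1, 6.55 and 12.3 CPM in METH rats. Again METH rat 4 alone reached into the saline range and METH rat 3 was the lowest. Gabra3 differed by -0.51 on the log2 scale (standard error 0.18, 95% interval -0.91 to -0.12), the FDR by the quasi-likelihood test was 0.318, and the exact permutation test over the 70 labellings of the rats gave a two-sided p of 0.0571.

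Gabra5, a subunit of receptors found largely outside synapses, was at 36.1, 28.9, 34.2 and 24.5 CPM in saline rats and at 18.8, 21.1, 17.3 and 34.5 CPM in METH rats. METH rats 1 to 3 were all below the lowest saline rat, and METH rat 4 was above 3 of the saline rats. The difference over all 8 rats was -0.43 on the log2 scale (standard error 0.19, quasi-likelihood FDR = 0.431, exact permutation p = 0.143). Leaving out METH rat 4 took it to -0.69 with an FDR of 0.0786. The highest saline rat was rat 1, the one with the most cortical marker RNA, and without it the difference was -0.35 with an unadjusted p of 0.120 by the quasi-likelihood test.

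Gabra4, which with the delta subunit forms receptors outside synapses in striatal projection neurons, was at 101.0, 102.8, 146.4 and 130.0 CPM in saline rats and at 113.5, 121.0, 91.1 and 110.2 CPM in METH rats. The groups overlapped, with METH rats 1, 2 and 4 between the lower and the upper pair of saline rats. Its log2 fold change, -0.14 (standard error 0.12, 95% interval -0.41 to 0.13), had an FDR of 0.688 by the quasi-likelihood test.

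The beta subunits form the GABA binding site together with alpha subunits. Gabrb2 was at 11.3, 13.5, 26.1 and 19.3 CPM in saline rats and at 11.9, 15.6, 6.04 and 16.1 CPM in METH rats, so that saline rat 3 and METH rat 3 were the highest and the lowest of all 8 and the remaining rats overlapped. Its log2 fold change of -0.50 carried a standard error of 0.29 and an FDR of 0.525 by the quasi-likelihood test. Gabrb1 lay between 4.94 and 8.84 CPM in saline rats and between 3.67 and 6.59 CPM in METH rats, with the same rats at the ends (log2 fold change -0.31, standard error 0.23). Without saline rat 3 the difference was -0.15 for Gabrb1 and -0.25 for Gabrb2, without METH rat 3 it was -0.16 and -0.28, and without both it was -0.0025 and -0.02.

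Of the gamma subunits, which anchor receptors at synapses and shape their response to benzodiazepines, Gabrg3 had the lowest log2 fold change of all 25 genes. It was at 4.78, 3.50, 7.92 and 6.14 CPM in saline rats and at 1.81, 4.09, 3.28 and 4.43 CPM in METH rats. METH rat 1 was here the lowest, METH rats 2 and 4 lay within the saline range, and METH rat 3 was just below it. Gabrg3 differed by -0.72 on the log2 scale (standard error 0.31, 95% interval -1.38 to -0.06), with an FDR of 0.420 by the quasi-likelihood test. Gabrg1 lay between 30.3 and 37.9 CPM in saline rats and between 25.5 and 33.4 CPM in METH rats, a log2 difference of -0.13 (standard error 0.11).

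Gabrd, which encodes the delta subunit, was the only one of the 9 tested subunits without a negative fold change. Saline rats were at 133.7, 131.7, 122.1 and 134.2 CPM and METH rats at 119.3, 127.5, 162.7 and 114.5 CPM. METH rat 3, the lowest rat in 7 of the 9 subunits, was the highest here, and the other 3 METH rats were within or below the saline range. Its log2 fold change was 0.0059 (standard error 0.10), and it took the other sign with upper-quartile and total-count scaling, with limma-voom, with the rat number as a block, and without METH rat 3 (-0.11) or saline rat 3 (-0.03). With the RLE scaling the sign was kept.

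Gabre and Gabrq, which encode the epsilon and theta subunits, were near the limit of detection. Gabre had 6, 13, 15 and 5 counts in saline rats and 7, 3, 1 and 14 counts in METH rats, and Gabrq had 4, 4, 6 and 1 against 4, 0, 0 and 8. In a fit of the 14412 genes with any count, Gabre differed by -0.59 on the log2 scale (standard error 0.74, quasi-likelihood FDR = 0.787) and Gabrq by -0.28 (standard error 1.01, quasi-likelihood FDR = 0.947), so that neither difference passed the test and both were poorly determined.

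**Figure D2:**
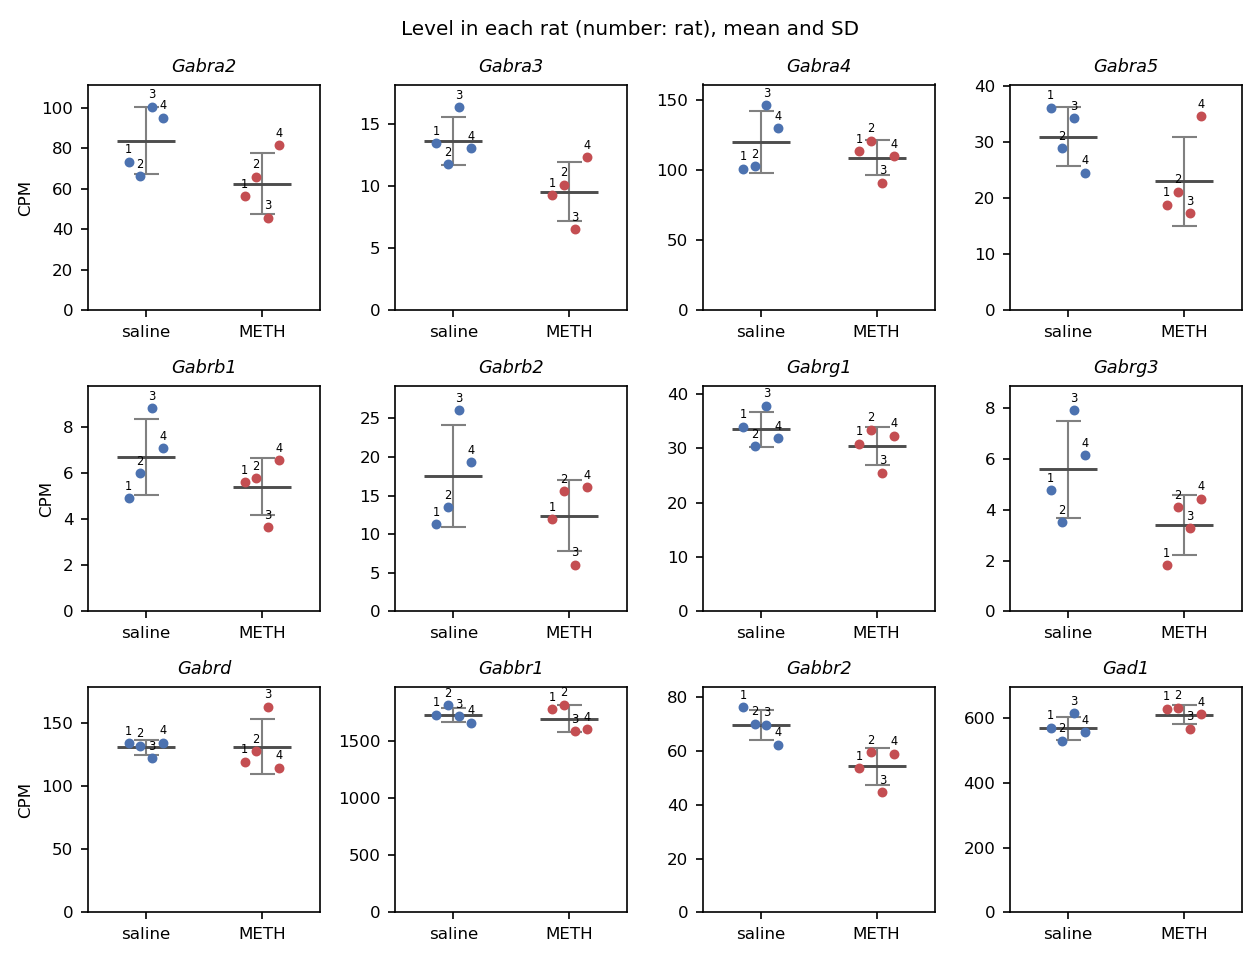
Level in CPM (vertical axes, starting at 0) of 9 GABA-A subunits, the GABA-B subunits and Gad1 in each saline rat (blue) and METH rat (red); the number beside a point is the rat's number, and bars show the mean and SD of 4 rats. Saline rat 3 is highest and METH rat 3 lowest in most subunits, and of the genes shown only Gabbr2 has all METH rats below all saline rats.

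The GABA-B receptor joins the product of Gabbr1, which binds GABA, to that of Gabbr2, which couples to the G protein. Gabbr2 was at 76.1, 70.1, 69.7 and 62.2 CPM in saline rats 1 to 4 and at 53.5, 59.5, 44.6 and 59.0 CPM in METH rats 1 to 4. The raw counts were 1386, 1402, 1442 and 1317 in saline rats and 1094, 1251, 790 and 1119 in METH rats. All 4 METH rats lay below the lowest saline rat, with METH rat 3 the lowest and saline rat 4 the nearest to the METH group.

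The mean of Gabbr2 was 69.5 ± 5.67 CPM (SD, n = 4) in saline and 54.2 ± 6.92 CPM (SD, n = 4) in METH rats, a fold of 0.780 (95% interval 0.670 to 0.908). The log2 fold change was -0.36 (standard error 0.10), with an unadjusted p of 0.00357 by the quasi-likelihood test, and the exact permutation test gave a two-sided p of 0.0286, the smallest that 4 rats against 4 allow. Over all genes the FDR was 0.204 by the quasi-likelihood test, so that Gabbr2 was not called, and over the alternatives it ranged from 0.0636 with DESeq2 to 0.465 without the rats numbered 3. Gabbr2 was the 1 gene of the 25 whose groups did not overlap with METH lower, a pattern seen in 2.65% of all genes, and 0 of the 25 showed it with METH higher, beside 3.75%. Separation in either direction was seen in 6.39% of all genes.

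Gabbr1 was at 1734, 1816, 1722 and 1667 CPM in saline rats and at 1784, 1824, 1589 and 1606 CPM in METH rats. METH rats 1 and 2 were inside or just above the saline range and METH rats 3 and 4 below it. Its log2 fold change was -0.03 (standard error 0.07, 95% interval -0.18 to 0.12, quasi-likelihood FDR = 0.906), and 0.0031 without METH rat 3.

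Because the subunits of a receptor, or enzymes and carriers with paired functions, can be compared within a rat, 4 ratios of counts were computed on the log2 scale. They allow rats to be compared, but are not ratios of molecules, since gene length was not taken into account. The log2 ratio of Gabbr1 to Gabbr2 was 4.51, 4.69, 4.63 and 4.74 in saline rats and 5.06, 4.93, 5.15 and 4.76 in METH rats. All METH rats were above all saline rats, with METH rat 4 close to saline rat 4. The difference was 0.33 (exact permutation p = 0.0286, two-sided), and 0.114 after Benjamini-Hochberg adjustment over the 4 ratios. Gabbr1 differed by -0.03 and Gabbr2 by -0.36, so this ratio largely repeats the Gabbr2 difference in the same rats and is not separate evidence.

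The ratio of Gabra2 to Gabra4 was -0.52 ± 0.08 (SD, n = 4) in saline and -0.83 ± 0.27 (SD, n = 4) in METH rats. METH rats 1 to 3 lay at -1.01, -0.87 and -0.99, below every saline rat, and METH rat 4 at -0.44, above every saline rat. The difference of -0.30 had an exact permutation p of 0.143, and without METH rat 4 it was -0.43.

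The Gad1 to Gad2 ratio differed by 0.19 (exact permutation p = 0.343) and the Slc12a5 to Slc12a2 ratio by 0.18 (exact permutation p = 0.457). Saline rat 3, at 0.80, had the lowest Gad1 to Gad2 ratio of the 8 rats, and the groups overlapped for both ratios.

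**Figure D3:**
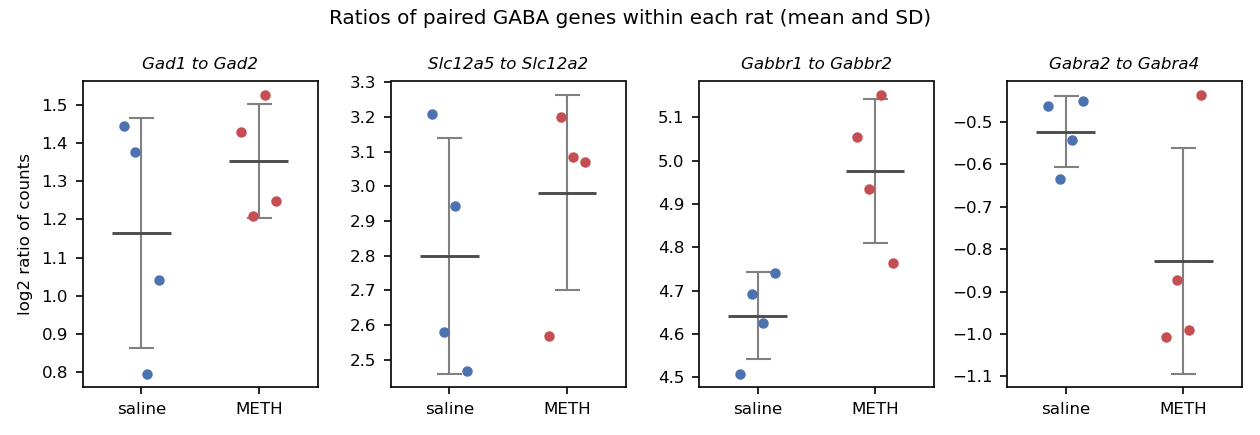
Log2 ratio of counts of 4 pairs of GABA genes within each saline rat (blue) and METH rat (red), with the mean and SD of 4 rats; each vertical axis has its own range and does not start at 0. Saline and METH rats separate for Gabbr1 to Gabbr2 and overlap for the other pairs, with METH rat 4 alone at the top for Gabra2 to Gabra4.

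The remaining members had smaller differences or wider overlap. Slc6a11, which encodes an astrocyte GABA transporter, ranged from 45.2 to 59.5 CPM in saline rats and from 36.6 to 58.2 CPM in METH rats, with METH rat 3 the lowest. Slc6a13, a GABA transporter gene also active in the meninges, ranged from 6.91 to 9.50 CPM and from 6.62 to 7.70 CPM. Neither had an interval that left out 0 (-0.37 to 0.22 and -0.46 to 0.23 on the log2 scale). Abat, whose product starts the breakdown of GABA, differed by -0.05 on the log2 scale (standard error 0.11), and Aldh5a1, whose product completes it, by -0.03 (standard error 0.07). Without METH rat 3 the difference was 0.05 for Slc6a11 and 0.03 for Abat, and without saline rat 3 that of Abat was 0.02.

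At the inhibitory synapse, Gphn encodes gephyrin, the scaffold beneath GABA-A and glycine receptors. It was at 112.1, 102.2, 105.2 and 102.1 CPM in saline rats and at 103.3, 93.8, 90.7 and 95.3 CPM in METH rats. METH rats 2, 3 and 4 were below every saline rat and METH rat 1 was above 2 of them. The log2 fold change was -0.14 (standard error 0.07, 95% interval -0.30 to 0.02), with an FDR of 0.489 by the quasi-likelihood test. Nlgn2, the adhesion protein of inhibitory synapses, ranged from 256.8 to 335.5 CPM in saline rats and from 245.1 to 303.7 CPM in METH rats.

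The GABARAP genes, which encode small ubiquitin-like proteins of receptor trafficking and autophagy, all had fold changes above 0 in the main comparison. Gabarap was at 137.7 to 166.9 CPM in saline and 147.3 to 175.1 CPM in METH rats, and Gabarapl2 at 168.0 to 183.7 and 166.2 to 198.3 CPM. Their log2 fold changes were 0.08 and 0.10, with standard errors of 0.08 and 0.08, and that of Gabarapl1 was 0.02, and none passed the test. With total counts as the only scaling the sign of Gabarapl1 turned to -0.02, and without saline rat 3 or METH rat 3 it was -0.00049 or -0.00039.

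Slc12a5, the chloride exporter of mature neurons, was at 884.8, 858.4, 1007 and 813.2 CPM in saline rats and at 832.1, 954.6, 898.5 and 885.3 CPM in METH rats. The METH rats all lay within the saline range. Its log2 fold change was 0.0030 (standard error 0.08), and the 95% interval of -0.17 to 0.17 bounds a difference in either direction. It was below 0 without saline rat 2, saline rat 4 or METH rat 2 (-0.01, -0.04 and -0.03). Slc12a2, the importer, ranged from 95.5 to 146.9 CPM in saline and from 103.7 to 140.2 CPM in METH rats (log2 fold change -0.18, standard error 0.13). Saline rat 1 was its lowest rat, and without that rat the difference was -0.30 with an unadjusted p of 0.0178 and an FDR of 0.348 by the quasi-likelihood test.

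The differences in the GABA-A subunits were spread unevenly over the rats. METH rat 3 was the lowest of the 8 rats in 7 of the 9 tested subunits and in 13 of all 25 members, compared to 22.3% of all genes. Saline rat 3 was the highest in 7 of the 9 subunits and in 12 of the 25 members, compared to 18.2% of all genes. The median deviation of the 9 subunits from the saline mean was -0.16, -0.20, 0.28 and 0.11 on the log2 scale in saline rats 1 to 4 and -0.48, -0.17, -0.82 and -0.05 in METH rats 1 to 4. METH rats 2 and 4 therefore lay within the range of the saline rats, and METH rats 1 and 3 below it. The corresponding median over all genes was within 0.01 of 0 in every rat, which the scaling for library composition largely sets. METH rat 3 also had the highest summed striatal projection neuron markers, 19611 CPM compared to 14738 to 16874 CPM in the other 7 rats. Ppp1r1b alone gave 10288 CPM of that sum. METH rat 3 was the highest rat in Drd2, Ppp1r1b, Penk and Rgs9 and the lowest in Drd1. It also had the fewest genes with a count (13142 compared to 13333 to 13410). None of the 10 projection neuron markers was called, and none was at 0 in every rat. The part of these values in the subunit differences was not tested.

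**Figure D4:**
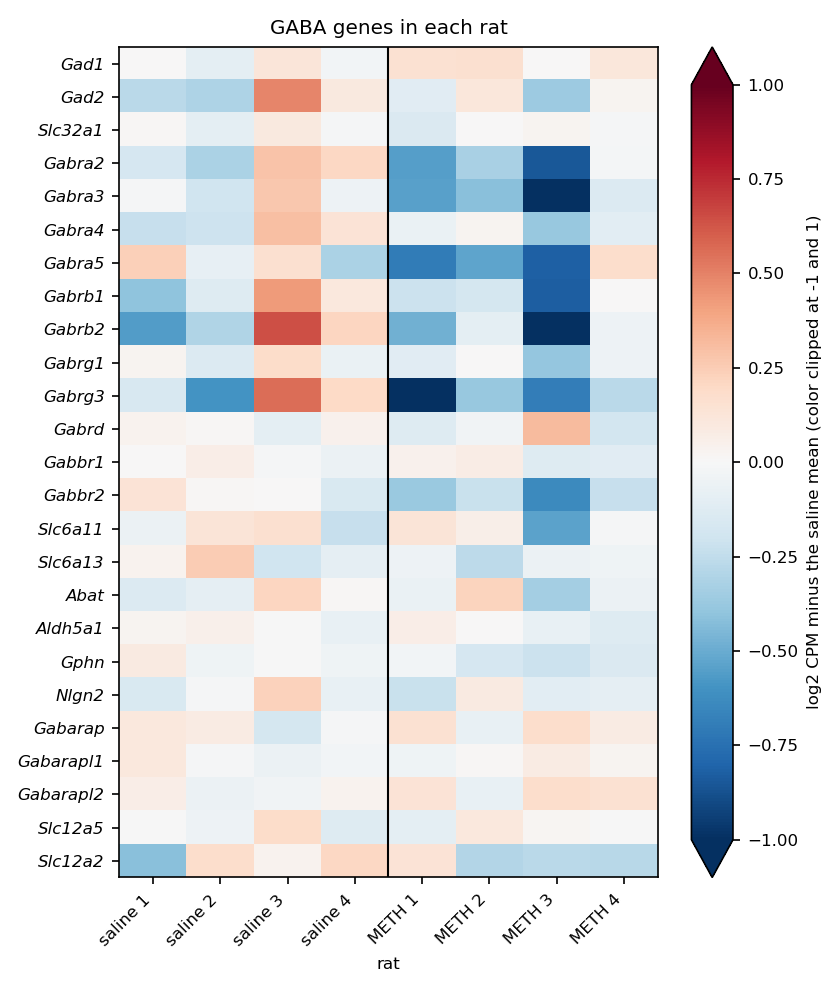
Deviation of log2 CPM from the saline mean (color, clipped at -1 and 1) of the 25 tested GABA genes (rows) in each rat (columns). Blue cells gather in the GABA-A rows of METH rats 1 and 3, orange to red cells in most of the same rows of saline rat 3, and METH rat 4 is paler than METH rats 1 and 3 in most GABA-A rows.

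Without saline rat 3, 2 members were lower at an unadjusted p below 0.05 by the quasi-likelihood test, and without METH rat 3 there were also 2. When both were left out, 1 member was lower (Gabbr2) and 1 was higher (Gad1, at 0.18). Without these rats Gabra2 was at -0.20 (unadjusted p = 0.190, quasi-likelihood test), Gabra3 at -0.27, Gabra5 at -0.26 and Gabrg3 at -0.48. Gabrb2 went from -0.50 to -0.02 and Gabrb1 from -0.31 to -0.0025. In both genes saline rat 3 was the highest and METH rat 3 the lowest rat, so a move toward 0 was built into this setting. In Gabbr2 METH rat 3 was also the lowest, but saline rat 3 lay inside the saline range. Gabbr2 was at -0.28 with an unadjusted p of 0.0129 by the quasi-likelihood test, and it kept its sign and an unadjusted p of at most 0.0142 when each of the 8 rats was left out in turn.

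**Figure D5:**
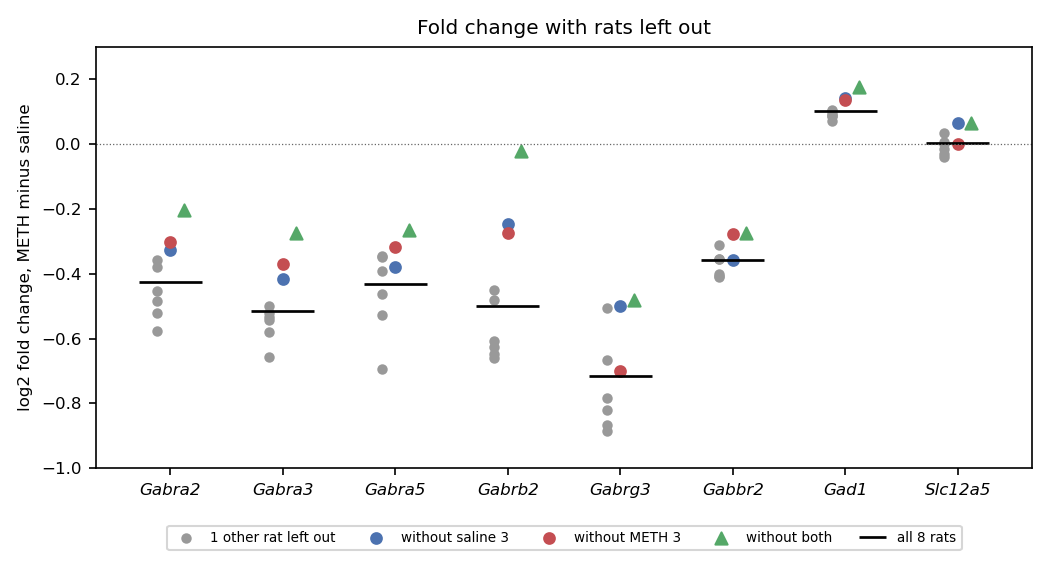
Log2 fold change, METH minus saline, of 8 GABA genes with all 8 rats (black line), without saline rat 3 (blue), without METH rat 3 (red), without both (green triangle) and without each other rat (gray). Gabrb2, in which these were the highest and the lowest rat, moves from -0.50 to -0.02 without both, while Gabbr2 stays between -0.41 and -0.28.

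Several members are neighbours in the genome. In the RefSeq gene table of the rat assembly GRCr8, Gabrg3 and Gabra5 follow each other on chromosome 1, and Gabrb1, Gabra4, Gabra2 and Gabrg1 stand together on chromosome 14 with at most 1 other protein-coding gene between neighbours. Gabre, Gabra3 and Gabrq share a stretch of the X chromosome. Within the group on chromosome 14 the log2 fold changes were -0.31 for Gabrb1, -0.14 for Gabra4, -0.42 for Gabra2 and -0.13 for Gabrg1, and those of the neighbours Gabrg3 and Gabra5 were -0.72 and -0.43. The members of a group are measured in the same rats and are not independent.

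The promoters of the genes that were lower at an unadjusted p below 0.05 are shown because they are the sequences on which a shared feature of these genes could be read. RefSeq promoter sequences of GRCr8 were matched for 24 of the 27 members, including Gabra3, Gabra5, Gabrg3 and Gabbr2 but not Gabra2. The 250 bases before each start are given 5′ to 3′ on the strand of the gene, which is the minus strand in each case. They lie at chrX:155543871-155544120 for Gabra3, chr1:117516607-117516856 for Gabra5, chr1:117382458-117382707 for Gabrg3 and chr5:66083696-66083945 for Gabbr2. Capitals mark a TATA box (TATAAA, read as TTTATA on the other strand) in Gabra3, GC boxes (GGGCGG, or CCGCCC) in the other 3, and a half-site of the cAMP response element (TGACG, or CGTCA) in Gabbr2.
Gabra3: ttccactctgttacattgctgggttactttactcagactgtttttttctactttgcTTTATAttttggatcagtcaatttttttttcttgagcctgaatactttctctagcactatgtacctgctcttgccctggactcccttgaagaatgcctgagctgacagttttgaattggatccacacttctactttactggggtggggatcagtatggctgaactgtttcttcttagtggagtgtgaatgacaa
Gabra5: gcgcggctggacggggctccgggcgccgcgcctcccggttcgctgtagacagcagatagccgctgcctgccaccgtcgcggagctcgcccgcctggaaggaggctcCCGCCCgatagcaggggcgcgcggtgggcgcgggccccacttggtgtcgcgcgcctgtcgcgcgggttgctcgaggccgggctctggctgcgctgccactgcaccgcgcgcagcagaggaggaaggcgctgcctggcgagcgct
Gabrg3: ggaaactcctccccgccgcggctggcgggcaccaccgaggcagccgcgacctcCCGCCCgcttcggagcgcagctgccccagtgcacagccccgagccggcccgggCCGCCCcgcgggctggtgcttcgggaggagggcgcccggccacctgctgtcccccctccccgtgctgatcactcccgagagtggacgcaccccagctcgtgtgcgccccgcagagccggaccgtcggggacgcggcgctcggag
Gabbr2: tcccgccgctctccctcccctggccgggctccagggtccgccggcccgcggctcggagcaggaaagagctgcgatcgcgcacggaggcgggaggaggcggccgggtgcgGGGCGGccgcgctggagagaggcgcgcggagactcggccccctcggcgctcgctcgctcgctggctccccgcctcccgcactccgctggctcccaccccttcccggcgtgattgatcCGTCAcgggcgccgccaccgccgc

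The Gabra3 window was poor in G and C (40.4%), whereas those of Gabra5, Gabrg3 and Gabbr2 held 76.4%, 78% and 78.8%. The median was 68.8% over the 24 member promoters and 52% over all 27457 promoters. Searched on both strands, the GC box was present in 18 of the 24 member promoters (75%), compared to 32.3% of all promoters, and the windows of the members hold more G and C to begin with. Counting the base before the start as -1, the half-site of Gabbr2 lay at -24 to -20 and its GC box at -141 to -136. The TATAAA match of Gabra3 lay at -194 to -189, on the strand opposite to the gene. TGACG was present in 3 member promoters (12.5%, compared to 18.9% of all), and TATAAA in 3 (compared to 13.1% of all).

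The full cAMP response element TGACGTCA, the AP-1 site TGACTCA and the palindromic glucocorticoid response element were in none of the 24 windows and in 1.68%, 4.03% and 0.00364% of all promoters. Of the Egr sites GCGGGGGCG and GCGTGGGCG, the first was in the Gad1 window, where it overlapped a GC box, and in 2.48% of all promoters, and the second in none of the members and 0.517% of all. These matches describe letters in a window and are not evidence of binding.

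Beyond the members, 57 further genes of GABA synthesis, receptor assembly and trafficking, inhibitory synapses and chloride control were examined, of which 54 were listed and 49 tested. By the quasi-likelihood test 0 of the 49 were called, 26 were lower and 23 higher, with a median log2 fold change of -0.03. At an unadjusted p below 0.05 in that test 3 were lower and 2 higher, beside 4.88% and 6.26% of all genes. The 3 lower genes were Nrxn3, a presynaptic adhesion protein (-0.30, standard error 0.13), Kctd8, an auxiliary subunit of GABA-B receptors (-0.27, standard error 0.12), and Wnk3, a kinase of chloride cotransporters (-0.76, standard error 0.34). Saline rat 3 was the highest of the 8 rats in each of these.

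Of the higher genes, Trak1, a motor adaptor that carries mitochondria and has been linked to GABA-A receptor trafficking, was at 148.7, 157.8, 140.3 and 149.9 CPM in saline rats and at 169.2, 186.1, 197.3 and 183.2 CPM in METH rats. Every METH rat was above every saline rat, a pattern seen in 3.75% of all genes. The log2 fold change was 0.30 (standard error 0.07), with an FDR of 0.121 by the quasi-likelihood test, 0.0283 by the likelihood ratio test and 0.00915 by DESeq2, so that its call depended on the test. Shisa7, an auxiliary subunit of GABA-A receptors, was at 204.3 ± 16.3 CPM (SD, n = 4) in saline and 256.3 ± 53.3 CPM (SD, n = 4) in METH rats, with METH rat 1 inside the saline range (log2 fold change 0.33, quasi-likelihood FDR = 0.377). Mdga1, which binds neuroligins, followed with 0.30 (standard error 0.22).

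None of the striatal projection neuron and interneuron markers was called. The 8 interneuron markers, 6 of which were tested and 0 called, summed to 277.8 to 383.3 CPM in saline and 260.2 to 353.8 CPM in METH rats. The 10 projection neuron markers summed to 14738 to 15675 CPM in saline and 15593 to 19611 CPM in METH rats, 0.16 higher on the log2 scale in the group means. Ppp1r1b alone had means of 7169 CPM in saline and 8499 CPM in METH rats and so weighed most in this sum. Drd2, Ppp1r1b and Pdyn were higher at an unadjusted p below 0.05 by the quasi-likelihood test (FDR 0.328 to 0.421), beside 6.26% of all genes. None of the 10 was lower at that cut. Of the 10, 3 were lower in METH rats. The 7 astrocyte markers, from the cells that carry Slc6a11, summed to 2102 to 2367 and 2034 to 2519 CPM, with 0 called. Of the 7, 4 were lower. For Gjb6 the METH rats lay above the saline rats without overlap, as in 3.75% of all genes. Its log2 difference was 0.44 (standard error 0.11, quasi-likelihood FDR = 0.137).

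In the microglia, endothelial, oligodendrocyte and oligodendrocyte precursor lists most markers had a log2 fold change below 0, beside 51.4% of all genes. Over all genes, 0.516% were called and 2.65% had all METH rats below all saline rats. The choroid plexus list went the other way, with sums of 4.72 to 6.23 CPM in saline and 5.81 to 9.40 CPM in METH rats. Of its 5 markers 2 were tested, with 0 lower and 0 called. Of the 7 microglia markers 6 were lower and 1 was called, Cx3cr1, the fractalkine receptor gene (log2 difference -0.73, standard error 0.14, quasi-likelihood FDR = 0.0408). That call was kept without saline rat 1 or METH rat 2 and lost without any other single rat, with an FDR of 0.0569 (without METH rat 1) to 0.144 (without saline rat 4) by the quasi-likelihood test. Their sum was 308.1 to 360.2 CPM in saline and 271.8 to 329.6 CPM in METH rats. All 5 endothelial markers were lower, with 0 called, and summed to 507.6 to 724.6 CPM in saline and 505.9 to 532.8 CPM in METH rats. The METH rats lay below the saline rats without overlap for 1 of them, Slco1c1 (-0.38, standard error 0.10).

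The 3 oligodendrocyte precursor markers were also lower, with 0 called and sums of 178.2 to 230.7 CPM in saline and 162.0 to 184.8 CPM in METH rats, -0.25 in the group means on the log2 scale. Of the 7 oligodendrocyte markers 5 were lower and 0 called, and their sums overlapped widely (13019 to 18823 and 12268 to 18266 CPM), while the METH rats lay below the saline rats for Opalin (-0.52, standard error 0.11, quasi-likelihood FDR = 0.0632). No marker of these lists was at 0 in every rat. The choice of Cck, Pdyn, Gjb6, Cx3cr1, Slco1c1 and Opalin followed from their values. The part of these cell types in the differences of the GABA genes was not tested.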

How the data were processed

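The striatal mRNA of 8 rats (4 METH, 4 saline, grouped and numbered by the sample labels) was analysed. Per the submitters' processing notes and the study's methods, reads were trimmed (cutadapt 1.18), mapped to the rn6 genome (STAR 2.7.0e) and assigned to genes (featureCounts, Subread 1.6.4). The authors deposited the raw counts, 1 column per rat. Strand setting, annotation and treatment of multiply mapped reads are not given in the sources used here, so overlapping genes are uncertain.

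From the counts, R 4.3.3 with edgeR 4.0.16 was used: filterByExpr (minimum count 10), TMM scaling, quasi-likelihood F-test with Benjamini-Hochberg adjustment over 12014 genes. A call needed an FDR under 0.05 and an average log2 CPM over 1. Log2 CPM and the ratios used a prior count of 2. Single genes and ratios were also compared by exact permutation over 70 labellings, two-sided. Rats of a group differed beyond sampling noise (10.1 to 27.6 for chi-square over its degrees of freedom), so each counted as 1 replicate. Intervals of folds are model based, and the floor of 3 counts covers counting error only.

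All 27 members were named by role. Per-rat values were given for members at an unadjusted p below 0.05 or without overlap and for 9 listed genes, and for the others the range, with rat values added where a sentence turned on them. Of the other pathway genes, those with the 3 lowest p per direction were named, and of the markers Drd1, Drd2, Ppp1r1b and Slc17a7. Other markers were added after their values were seen. The members and lists were chosen with earlier results of these data known. Some genes of the pathway are not reported here. Gene lengths were not used, so levels of different genes were not compared.

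The alternatives were a likelihood ratio test, DESeq2 1.42.0, limma-voom (limma 3.58.1), other scalings, filters, dispersion and call rules, each rat left out, and the rat number as a block. The fit was tested on simulated data. Promoters came from RefSeq (GRCr8), and no coordinates of rn6 are given.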

Additional observations from a re-analysis of the deposited data

Results flagged for a closer look

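In each group of 4 rats, a rat was marked where its gap to the nearest other rat, divided by the range of the group, passed Dixon's 95% critical value for 4 samples. This marked 7 of 86 groups (8.14%), 2 of them among the 50 groups of member genes, and chance marks about 1 in 20. Slc6a13 was marked for METH rat 2 (gap 0.938 of the range), which was at 2.75 log2 CPM beside 2.95 to 2.96 in the other METH rats. Slc12a2 was marked for METH rat 1 (0.933), at 7.13 log2 CPM beside 6.70 to 6.73. The first principal component was marked for METH rat 3 (0.872), at 39.5 beside 0.26 to 5.29. The cortical markers were marked for saline rat 1 (0.936), at a summed log2 CPM of 6.31 beside 1.74 to 2.04. The number of genes with a count was marked for saline rat 2 (0.872), with 13410 beside 13371 to 13376. The astrocyte markers were marked for saline rat 2 (0.854) and for METH rat 1 (0.843), at summed log2 CPM values of 11.2 and 11.3 beside 11.0 to 11.1 and 11.0.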

How the results depend on the processing

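None of the 25 members was called under any of the 21 alternatives, of which leaving out both rats numbered 3 was chosen after seeing the data. All genes called numbered 62, and 170 with the likelihood ratio test, 191 with DESeq2, 37 to 70 with a rat left out, 37 with the replicate block and 37 without both rats numbered 3. Of the other pathway genes, 1 (Trak1) was called with the likelihood ratio test and 1 with DESeq2. Members lower at an unadjusted p below 0.05 by the quasi-likelihood test numbered 2 to 6 with a rat left out, and without both rats numbered 3 there was 1, with 1 higher and a median of -0.015. The block gave 4. Rat numbers did not pair the animals (correlations 0.01, -0.19, -0.20 and 0.04), and with this pairing the Gabbr1 to Gabbr2 ratio had an exact p of 0.125 at a difference of 0.33, the smallest p that 4 pairs allow.

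With a rat left out that ratio difference was 0.28 to 0.40 (exact p = 0.0571 without any 1 saline rat), and Gabra2 to Gabra4 was -0.43 to -0.24. Signs turned for several members under some alternatives. Gabrd was -0.0077 with limma-voom, -0.0038 with upper-quartile factors, -0.033 with total counts, -0.0069 with the block and -0.14 without both rats numbered 3. Slc12a5 was -0.0047 with upper-quartile factors and -0.033 with total counts, Gabarapl1 -0.016 with total counts. Total counts shifted the median of all genes to -0.04. Without both rats numbered 3, Gad2 was 0.16, Gabra4 0.046, Gabrg1 0.0066, Slc6a11 0.11, Abat 0.11, Nlgn2 0.0081, Gabarap -0.0012 and Gabarapl1 -0.020. With a rat left out, the ranges that crossed 0 were Gad2 -0.21 to 0.076, Slc32a1 -0.062 to 0.0064, Gabrd -0.11 to 0.065, Gabbr1 -0.063 to 0.0031, Slc6a11 -0.15 to 0.052, Abat -0.16 to 0.033, Gabarapl1 -0.00049 to 0.056 and Slc12a5 -0.039 to 0.066. The cause was not tested. With 4 rats per group, intervals of the low-count subunits Gabrb1, Gabrb2 and Gabrg3 were the widest of the 25.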
